A study of Mus musculus with 2 samples.

Results

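Mid pachytene cluster 11 is one of 4 clusters that the authors of a single-cell RNA-seq study of mouse spermatogenesis placed in the stage named mid pachytene (mP). Its members were taken from the deposited cell table as the cells with that stage name and cluster number 11, which gave 617 of 17253 annotated cells. No cell of cluster 11 had another stage name. The other mid pachytene clusters are numbers 2, 4 and 7, with 1407, 869 and 815 cells.

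The study compared testes of adult C57BL/6 mice of the genotypes WT and Zfp541-/-, with 1 library of each genotype on the droplet-based 10x platform, which counts unique molecular identifiers (UMIs) near the 3′ end of transcripts. ZFP541, a zinc finger protein found in male meiosis, forms a complex with histone deacetylases. Both libraries came from cells sorted for tetraploid DNA content, as the source label and the protocol have it, although the sample titles call them whole testis. Which part of Zfp541 the mutant allele lacks is not stated in the labels, and neither is the number of mice per library. Since each genotype is 1 library, genotype and library cannot be told apart, cells are not replicates, and no test between conditions was possible.

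Pachytene is the long stage of meiotic prophase in which homologous chromosomes are fully synapsed along the synaptonemal complex, recombination intermediates mature into crossovers, and the X and Y chromosomes are transcriptionally silenced in the sex body. In the mouse testis a large wave of transcription starts during pachytene, driven in part by the MYB family factor MYBL1, and it covers pachytene piRNA precursors and many genes whose proteins are used later in the acrosome and the flagellum. Germ cells that fail at these steps are typically removed before the meiotic divisions.

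Cluster 11 held 178 WT cells, 14.7% of the 1207 mid pachytene cells of that library (exact 95% Clopper-Pearson interval 12.8% to 16.9%). In the library labelled Zfp541-/- it held 439 of 2501 cells, or 17.6% (16.1% to 19.1%). Cluster sizes depend on the genes that define the clusters, so these shares are not compared between the libraries. All intervals given here cover counting error only, not the variation from mouse to mouse or from one preparation to the next. The WT cells had a median of 8188 UMIs and 2960.5 genes, and the cells labelled Zfp541-/- 18775 UMIs and 4555 genes. The median mitochondrial share was 1.45% in WT and 3.19% in the library labelled Zfp541-/-. Summed over the cluster, the depth was 1616703 and 8271870 UMIs, so that 10 UMIs corresponded to 6.19 and 1.21 CPM, that is UMIs per 1000000 UMIs. The same 17 barcodes were annotated in both libraries, of which 0 lay in cluster 11 of WT and 2 in cluster 11 of the library labelled Zfp541-/-. No doublet caller was run.

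The authors' pseudotime score, a whole-number order with no unit, placed cluster 11 in a narrow window between cluster 4 and clusters 2 and 7. WT cells of cluster 11 ran from -19184 to -17762 with a median of -18373.5, and cells labelled Zfp541-/- from -19151 to -17781 with a median of -18503. Cluster 4 came earlier, with medians of -20280.5 and -19885. Clusters 2 and 7 came later and overlapped each other, with medians of -16685 and -16281 in WT and of -16091 and -16402 in the library labelled Zfp541-/-. Within the central 90% of the scores of cluster 11 lay 30 WT cells of cluster 2 and 0 of clusters 4 and 7, and in the other library 19 cells of cluster 2, 3 of cluster 7 and 0 of cluster 4. In a finer clustering in the authors' table, 173 of the 178 WT cells and 431 of the 439 other cells fell into 1 fine cluster, which also took in 57 and 209 cells of cluster 4 and 19 and 70 cells of cluster 7.

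**Figure D1:**
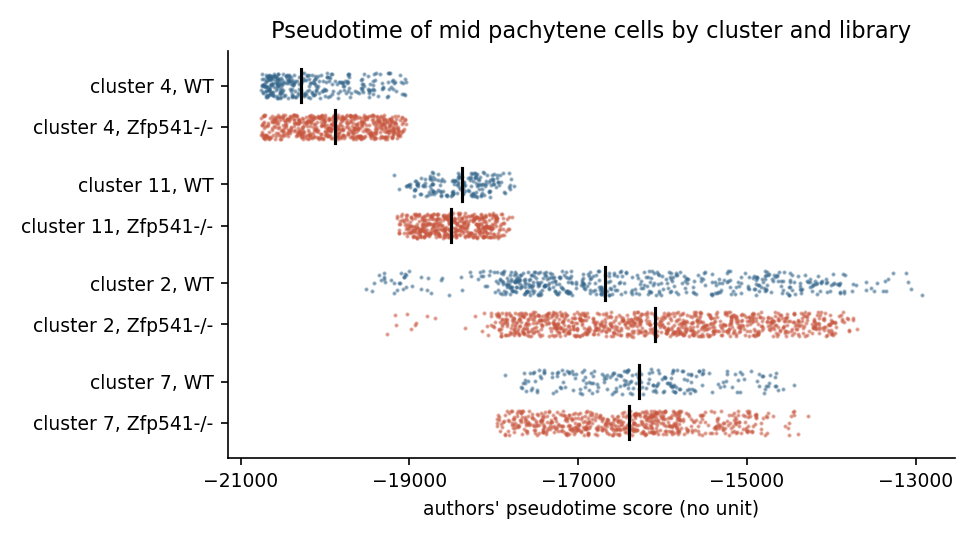
Pseudotime score of every mid pachytene cell (x axis, the authors' order with no unit) by cluster and library (rows); points are cells, spread vertically at random, and black bars are medians. Cluster 11 occupies the window from about its lowest score of -19184 to its highest of -17762, after cluster 4 and before most cells of clusters 2 and 7.

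The stage name was checked against marker lists. Pachytene markers summed to 13122 CPM in WT cluster 11 and 12105 CPM in the library labelled Zfp541-/-, against 1291 and 1082 CPM in the cells of stages before pachytene. Among them, Ldhc, the germ cell lactate dehydrogenase, stood at 7072 and 6600 CPM and Ybx3, an RNA-binding protein that stores mRNA, at 2748 and 2019 CPM. Spermatogonial markers summed to 106 and 170 CPM, against 2136 and 2558 CPM before pachytene, with 4 of 8 members at 0 in WT and 0 of 8 in the other library. The WT reference before pachytene was small, with 690 UMIs of this list against 38502 in the other library. Leptotene-zygotene markers still stood at 3689 and 4278 CPM, against 5844 and 6347 CPM before pachytene. Sertoli cell markers summed to 2 to 4 CPM in cluster 11, with 3 of 8 at 0 in WT and 4 of 8 in the other library, and Leydig cell markers to 6 to 9 CPM, with 4 and 3 of 6 at 0. The lists of myoid, endothelial, macrophage and red cell markers each summed to at most 4 CPM. Round spermatid markers summed to 88 and 46 CPM. Diplotene and division markers summed to 1245 and 898 CPM, against 786 and 867 CPM before pachytene. By these lists the cells carried pachytene transcripts, with few from somatic cells. Cells of later stages were not compared, so the lists do not tell mid pachytene from what follows.

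Elongating spermatid markers set the libraries apart. Their sum was 330 CPM in WT cluster 11, with 0 of 7 members at 0, and 308, 242 and 313 CPM in WT clusters 4, 2 and 7. In the other library the sum in cluster 11 was 1 CPM, with 5 of 7 members at 0. Prm1 and Prm2, the protamines that package sperm DNA, had 191 and 211 UMIs in WT cluster 11 and 0 in the other library. WT cells of stages before pachytene had 582 CPM of the same list, on 188 UMIs, so the WT level was not particular to mid pachytene. Whether RNA from outside the cells contributes to the values below was not tested.

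Of the 5 markers given for the cluster, 1 had its highest CPM there in both libraries. Against cluster 4, however, 0 of the measured markers had an interval above 0 in either library. Rundc3b, which encodes a RUN domain protein (chr5:8490334-8622952, mm10), stood in WT at 7.85, 12.4, 2.92 and 6.15 CPM in clusters 4, 11, 2 and 7. The other library had 126, 132, 77.0 and 127 CPM in the same order. The log2 ratio of cluster 11 to the other 3 clusters summed was 1.34 (0.47 to 2.13) in WT, on 20 UMIs, and 0.34 in the other library, on 1093 UMIs. Maz, a zinc finger transcription factor gene (chr7:127022130-127027037), was highest in cluster 4 in both libraries, at 131 against 74.8 CPM in cluster 11 of WT and at 164 against 144 CPM in the other. Sgpp1, which encodes sphingosine-1-phosphate phosphatase, stood at 57.4, 32.2, 20.2 and 24.1 CPM in WT clusters 4, 11, 2 and 7, and at 73.4, 74.1, 42.8 and 58.8 CPM in the other library. Terb2, part of the complex that ties meiotic telomeres to the nuclear envelope, stood at 33.4 CPM in WT cluster 11, below the 46.1 CPM of cluster 4, while the other library had 104 CPM there and 117 CPM in cluster 4. Eml5, of the EMAP-like microtubule-binding family, rested on 3 UMIs in WT cluster 11 and stood at 91.3 CPM in the other. Maz and Terb2 were thus highest in cluster 4, and Sgpp1 was highest in cluster 4 of WT and about level between clusters 4 and 11 of the other library. Against cluster 4 of that library, 3 of the 5 markers were lower in cluster 11, Eml5 among them, and the intervals of 2 lay below 0.

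Zfp541 itself (chr7:16061814-16096334) was counted in both libraries. Its level in cluster 11 was 32.2 CPM from 52 UMIs in WT and 84.3 CPM from 697 UMIs in the library labelled Zfp541-/-, a log2 ratio of 1.38 (0.98 to 1.82). In clusters 4, 2 and 7 it stood at 22.1, 23.6 and 40.5 CPM in WT and at 92.6, 72.8 and 85.5 CPM in the other library. A 3′ count outside the deleted sequence does not check a knockout, and the mutated sequence is not given here, so the second library is called by its label.

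Cluster 11 was compared first with clusters 2, 4 and 7 summed within the same library, for genes with at least 10 CPM in the higher group. Because the clusters were made from the same genes, the ratios describe the cluster and are not a test. In WT, 32 of 7077 genes (0.452%) were at least 2-fold higher and 23 (0.325%) at least 2-fold lower in cluster 11. In the library labelled Zfp541-/- 0 of 7283 genes (0%) were at least 2-fold higher and 18 (0.247%) at least 2-fold lower. The log2 ratio was above 0 for 61.1% and 63.8% of genes, with medians of 0.08 and 0.07. Scaling by the median of ratios instead of total UMIs turned the WT split into 22 genes higher and 33 lower, and left 0 and 22 in the other library. With every cell thinned to 4234 UMIs the counts were 149 higher and 78 lower in WT and 10 and 21 in the other library. Against reference cells of the same pseudotime, of which there were 30 in WT and 22 in the other library, they were 867 and 388 and 504 and 207. The counts therefore depended on these settings. The summed reference also mixes earlier and later cells, and cluster 2 has the most cells in it, so each cluster was compared in turn as well.

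Among genes on the same side of all 3 other clusters in both libraries, 158 were higher and 68 lower in cluster 11, of 6432 genes measured in both. Those whose counting intervals against the 3 clusters summed lay farthest from 0 in each direction are described here. The intervals do not cover the differences from each single cluster, which were judged by sign alone. Apba1, which encodes a neuronal-type adaptor of membrane trafficking, stood at 36.8, 62.5, 32.3 and 52.8 CPM in WT clusters 4, 11, 2 and 7 and at 75.2, 88.6, 47.4 and 83.1 CPM in the other library. Fyttd1, an mRNA export adaptor, stood at 926, 1070, 711 and 990 CPM and at 1043, 1066, 706 and 1026 CPM. Bcl2l1, the anti-apoptotic BCL-XL gene, stood at 97.6, 121, 58.6 and 101 CPM and at 99.6, 106, 59.8 and 96.2 CPM. For these 3 genes cluster 2 was the lowest of the 4 clusters in both libraries, and clusters 4 and 7 lay between it and cluster 11.

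The log2 ratio of cluster 11 to the other clusters summed was 0.71 (0.36 to 1.03) and 0.44 (0.32 to 0.56) for Apba1, 0.36 (0.29 to 0.44) and 0.27 (0.23 to 0.30) for Fyttd1, and 0.62 (0.38 to 0.85) and 0.40 (0.29 to 0.51) for Bcl2l1, in WT and in the library labelled Zfp541-/-. Taf9, a subunit of the general transcription factor TFIID, had ratios of 0.97 (0.40 to 1.49) and 0.63 (0.32 to 0.92). Enthd1, of the ENTH domain family, had ratios of 1.11 (0.32 to 1.82) and 0.73 (0.39 to 1.04), on 23 and 108 UMIs. Further higher genes were Zfp955b, Ptpdc1, the ubiquitin ligase Herc1, Lmln, the cAMP phosphodiesterase Pde7a, the exosome ribonuclease Dis3l, the thioredoxin reductase Txnrd1, the repressor Zbtb18, and Rundc3b. Their ratios ran from 0.47 for Dis3l to 1.34 for Rundc3b in WT and from 0.33 for Pde7a to 0.54 for Zfp955b in the other library.

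Among genes lower in cluster 11 than in each of the other 3 clusters, Cope, a subunit of the coatomer of Golgi vesicles, stood at 145, 121, 172 and 131 CPM in WT clusters 4, 11, 2 and 7 and at 79.5, 71.2, 103 and 78.8 CPM in the other library. Ndufa12, a subunit of respiratory complex I, stood at 441, 403, 556 and 408 CPM and at 313, 306, 386 and 317 CPM. Its gaps to cluster 7 were small in both libraries. Trappc1, of the TRAPP vesicle-tethering complex, had log2 ratios to the 3 clusters summed of -0.54 (-0.91 to -0.19) and -0.34 (-0.48 to -0.21) and ranked first. Rtn3, Mrpl12, Pih1d1, Anapc11, Fis1, 2310039H08Rik, Fzr1, Pef1, Lin37, Rbm42, Arfrp1 and 1700029M20Rik completed the rule. Of these, Mrpl12 is a mitochondrial ribosomal protein gene, Fis1 acts in mitochondrial fission, Anapc11 is a subunit and Fzr1 an activator of the anaphase-promoting complex. For 1700029M20Rik the interval in the library labelled Zfp541-/- reached 0, at -0.07 (-0.15 to 0.00).

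Set against single clusters, cluster 11 lay nearest to cluster 7. In WT it had 68 of 7211 genes (0.943%) at least 2-fold higher and 88 (1.22%) lower than cluster 7. Against cluster 4 the WT shares were 3.15% higher and 2.45% lower, and against cluster 2 they were 4.7% higher and 0.875% lower. In the other library, 0.0684% and 0.301% of genes were higher and lower against cluster 7, 0.32% and 0.919% against cluster 4, and 1.37% and 0.752% against cluster 2. The central 90% of log2 ratios spanned 1.24 against cluster 7, 1.56 against cluster 4 and 1.52 against cluster 2 in WT. The widths of the other library were 0.72, 0.96 and 1.31.

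Genes picked as different between clusters 4 and 7 mostly had levels between them in cluster 11. In WT, 502 genes were at least 2-fold higher in cluster 7 than in cluster 4, and for 479 of them (95.4%) the level of cluster 11 lay between the 2 clusters. Of 413 genes at least 2-fold lower, 378 (91.5%) did so. In the other library the counts were 161 of 161 and 244 of 246. The median position of cluster 11, with cluster 4 at 0 and cluster 7 at 1 on the log2 scale, was 0.62 and 0.55 for the WT genes and 0.58 and 0.58 for the genes of the other library. Of the 502 genes higher in cluster 7 of WT, 20.5% were also at least 2-fold higher there in the library labelled Zfp541-/- and 385 had the same sign. Of the 161 from that library, 60.2% were at least 2-fold higher in WT. These gene sets were chosen after the values had been seen. Picking genes at least 2-fold apart makes clusters 4 and 7 the ends, which favours a level between them. No share for another cluster or for all genes was set beside these shares. They therefore do not show by themselves that cluster 11 is intermediate.

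In both libraries, 71 genes were at least 2-fold higher and 82 at least 2-fold lower in cluster 7 than in cluster 4. Cluster 11 lay between for 71 of the higher and 78 of the lower genes in WT. In the library labelled Zfp541-/- it did so for 71 and 82. Picking the genes by clusters 4 and 7 favours these counts too. Hspb9, a small heat shock protein gene of the testis (chr11:100713850-100714575), stood at 315, 977 and 1907 CPM in WT clusters 4, 11 and 7 and at 166, 344 and 619 CPM in the other library. Its log2 ratio of cluster 11 to cluster 4 was 1.63 (1.50 to 1.77) and 1.05 (0.96 to 1.15). Hrasls5, a phospholipid-metabolizing enzyme gene, stood at 447, 879 and 1103 CPM and at 546, 891 and 1126 CPM. Ppp3r2, the testis form of the calcineurin regulatory subunit, stood at 312, 643 and 920 CPM and at 119, 193 and 277 CPM. Spata16, which acts in acrosome formation, stood at 119, 204 and 266 CPM and at 108, 161 and 234 CPM. All 4 rose from cluster 4 through cluster 11 to cluster 7 in each library, the clusters by which the genes were picked. In cluster 2, Hspb9, Hrasls5 and Ppp3r2 were also higher than in cluster 11 in both libraries. Spata16 was lower there than in cluster 11, at 139 CPM in WT and 157 CPM in the other library.

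**Figure D2:**
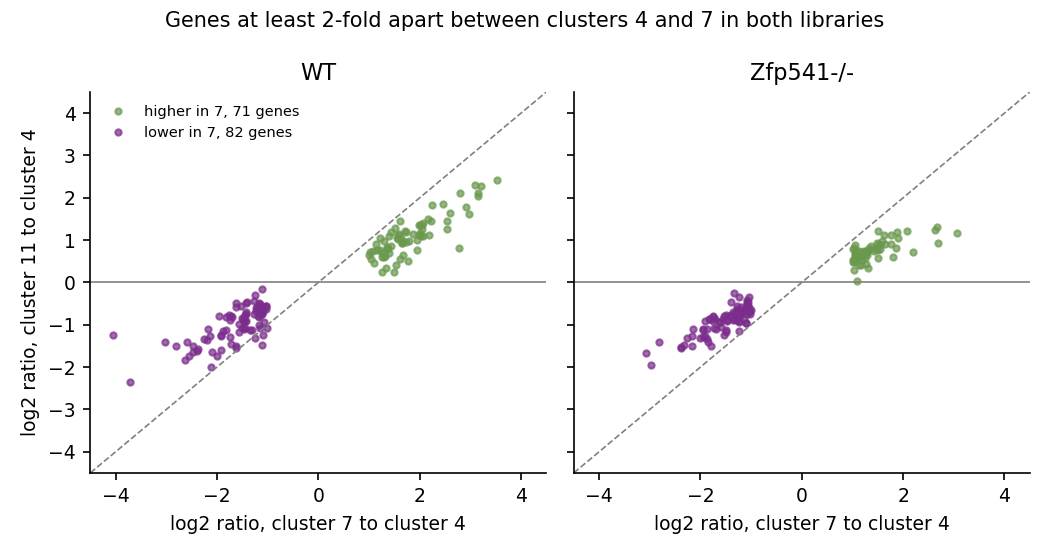
Log2 ratio of cluster 11 to cluster 4 (y axis) against that of cluster 7 to cluster 4 (x axis), for the 71 genes at least 2-fold higher (green) and the 82 at least 2-fold lower (purple) in cluster 7 in both libraries, with WT on the left and the library labelled Zfp541-/- on the right. Points between the horizontal line at 0 and the dashed line of equality have a cluster 11 level between clusters 4 and 7. This holds for 71 and 78 genes in WT and for 71 and 82 in the other library. The genes were picked by clusters 4 and 7, which favours such a position.

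Promoters are shown for the 3 genes with the highest WT level in cluster 11 among the 71 that had an entry in the RefSeq promoter table (build GRCm38.p6). Each runs from 250 bases before the annotated start to 30 after it, read 5′ to 3′ on the gene's strand. Capitals mark the core letters of MYB sites on either strand, which are CAACTG, the same with a first T as TAACTG, and the forms CAACGG and, with a first T, TAACGG.
Hspb9 promoter, chr11:100713679-100713958, + strand: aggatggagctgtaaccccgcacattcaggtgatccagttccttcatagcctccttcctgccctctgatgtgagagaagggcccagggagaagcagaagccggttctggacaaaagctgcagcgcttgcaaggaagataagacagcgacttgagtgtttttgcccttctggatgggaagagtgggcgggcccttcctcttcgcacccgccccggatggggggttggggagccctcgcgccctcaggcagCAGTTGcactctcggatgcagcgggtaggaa
Cmtm2a promoter, chr8:104293152-104293431, - strand: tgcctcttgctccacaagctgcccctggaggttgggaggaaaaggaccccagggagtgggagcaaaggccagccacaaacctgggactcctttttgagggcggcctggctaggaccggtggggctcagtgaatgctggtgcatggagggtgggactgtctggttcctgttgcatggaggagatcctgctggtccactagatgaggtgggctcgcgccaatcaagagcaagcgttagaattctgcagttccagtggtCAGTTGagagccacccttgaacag
Cmtm2b promoter, chr8:104321977-104322256, + strand: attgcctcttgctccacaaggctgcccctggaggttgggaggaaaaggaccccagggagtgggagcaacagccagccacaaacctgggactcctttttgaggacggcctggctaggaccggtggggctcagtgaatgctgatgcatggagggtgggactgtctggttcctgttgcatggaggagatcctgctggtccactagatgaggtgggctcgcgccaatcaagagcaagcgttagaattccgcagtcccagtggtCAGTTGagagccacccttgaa
Each of the 3 held 1 match, at base 250, 257 and 260 of the printed window, next to the annotated start. Over the table as a whole such a match was common. Of 61 promoters of 47 of the 71 genes, 27.9% held at least 1, against 28.3% of all 32851 promoters of 300 bases and 28.4% of the 6248 promoters of genes with at least 10 CPM in cluster 11 of both libraries. The 82 falling genes had 23.9% of 88 promoters with a match. The share among the rising genes was thus close to that of all promoters. A match is a description of the letters and not a binding site.

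Cmtm2a and Cmtm2b, neighbouring chemokine-like factor genes of the MARVEL family, have promoters that were identical at 271 of 277 aligned bases (97.8%). Cmtm2a stood at 413, 704 and 961 CPM in WT clusters 4, 11 and 7 and at 252, 389 and 530 CPM in the other library. Cmtm2b stood at 315, 696 and 1144 CPM and at 606, 1010 and 1413 CPM. Both rose through cluster 11 in each library. In cluster 11 Cmtm2a was lower and Cmtm2b higher in the library labelled Zfp541-/- than in WT. The identity given is that of the promoters. Whether the counted transcripts are as alike, and whether this affects the levels of the 2 genes, was not tested.

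Among the 82 falling genes were genes of early meiosis. Tex101, a germ cell surface glycoprotein gene, stood at 2694, 1603 and 997 CPM in WT clusters 4, 11 and 7 and at 1522, 835 and 517 CPM in the other library. Sycp1, the transverse filament of the synaptonemal complex, stood at 874, 575 and 374 CPM and at 720, 432 and 353 CPM. Syce2, a central element protein gene, fell from 210 to 121 and 91.7 CPM and from 79.0 to 42.1 and 23.4 CPM. Dazl, an RNA-binding regulator of germ cell translation, stood at 172, 90.9 and 61.5 CPM and at 265, 143 and 104 CPM. The fall from cluster 4 to cluster 11 was larger than that from cluster 11 to cluster 7 for these genes in CPM, in both libraries.

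Some of these genes moved the same way inside cluster 11. Its cells were divided at the median pseudotime of each library into 89 and 89 WT cells and 220 and 219 cells labelled Zfp541-/-, a division added after seeing the data. Hspb9 stood at 837 CPM in the earlier and 1122 CPM in the later WT cells, and at 302 and 384 CPM in the other library. Spata16 stood at 170 and 238 CPM and at 144 and 178 CPM. Tex101 stood at 1729 and 1472 CPM and at 949 and 726 CPM, and Dazl at 111 and 70.5 CPM and at 157 and 131 CPM. The log2 differences were 0.42 (0.28 to 0.57) and 0.35 (0.24 to 0.45) for Hspb9 and -0.23 (-0.35 to -0.12) and -0.39 (-0.46 to -0.32) for Tex101. These genes were chosen after their values were seen and do not stand for all genes. Of 7331 measured genes in WT, 217 were higher and 210 lower in the later cells by their whole counting interval. In the other library 407 of 7347 were higher and 656 lower. At least 2-fold higher and lower were 195 and 192 genes in WT and 2 and 11 in the other library. Whether the WT counts exceed what counting error alone gives was not tested. Pseudotime was made from expression, so these differences are a description.

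Cluster 2, which overlaps cluster 7 in pseudotime, differed from cluster 11 in another way. Malat1, a long noncoding RNA kept in the nucleus, stood at 1111 CPM in cluster 11 of WT, at 1243 and 1085 CPM in clusters 4 and 7 and at 519 CPM in cluster 2. In the other library the levels were 879, 1077, 879 and 272 CPM in clusters 11, 4, 7 and 2. The list of nuclear-retained noncoding RNAs summed to 1259 CPM in WT cluster 11 against 667 CPM in cluster 2, and to 1221 against 572 CPM in the other library. Ribosomal protein genes went the other way, at 100297 against 106999 CPM in WT and 115325 against 123959 CPM in the other library. Cluster 4 was also above cluster 11 for them, at 109272 CPM in WT and 119614 CPM in the other library. Cluster 7 was below it, at 93978 and 111226 CPM.

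The difference from cluster 2 followed the genomic span of the gene. With genes divided into 5 groups of equal size by the distance from start to end of the annotated gene, the median log2 ratio of cluster 11 to cluster 2 in WT was -0.11 for genes under 7.63 kb and 0.53 for genes of 64.1 kb and over. The other library had medians of -0.12 and 0.49. Against cluster 7 the medians of all 5 groups of genes lay between -0.05 and 0.04 in WT and between 0.01 and 0.05 in the other library. The share of the longest genes above 0 in cluster 11 against cluster 2 was 82.9% in WT. Median UMIs per cell were 8188 in cluster 11 and 7712 in cluster 2 of WT, and 18775 and 18449.5 in the other library, and the part of RNA quality or of nuclear RNA in this difference was not tested.

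**Figure D3:**
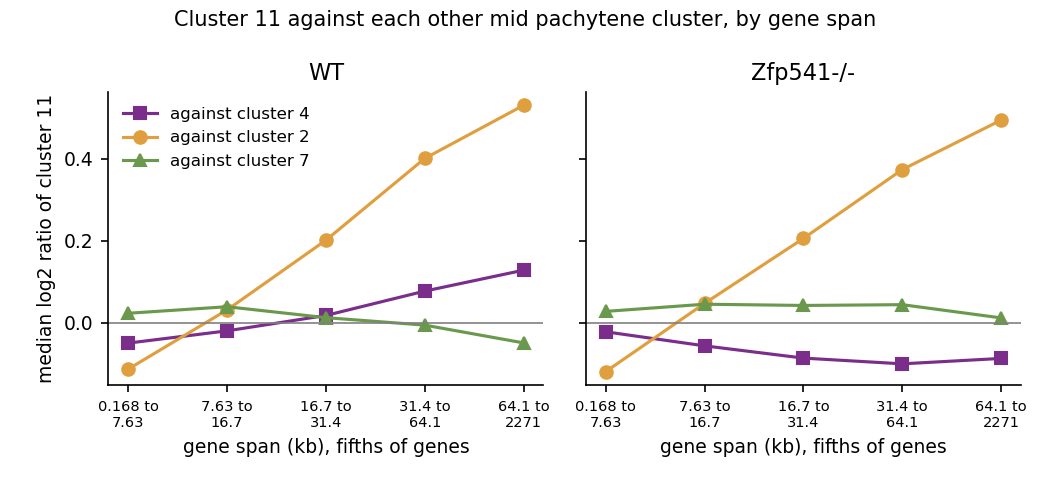
Median log2 ratio of cluster 11 to cluster 4, 2 or 7 (y axis) in 5 equal groups of genes by genomic span in kb (x axis), with WT on the left and the library labelled Zfp541-/- on the right. Against cluster 2 the medians climb from -0.11 to 0.53 and from -0.12 to 0.49 with span, while against cluster 7 they stay near 0.

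Lists of genes of meiosis and of sperm formation were then read in cluster 11 against each of clusters 4, 2 and 7. They are described by counts and medians of log2 ratios, with no test, and the counts are to be read against all genes. Of all measured genes, 52.8%, 62.5% and 50.5% were above 0 against clusters 4, 2 and 7 in WT, and 38.8%, 65.4% and 57.1% in the other library. Below, counts against the 3 clusters are given in this order. Against cluster 2 the share above 0 also depended on gene span. From the shortest to the longest group it went from 33.4% to 82.9% in WT and from 34.1% to 84.3% in the other library. The lists were not matched for span, so its part in their counts was not tested. Members at least 2-fold from the 3 clusters summed were Mettl14, Pgk2 and Pou5f2 in WT, besides the marker Rundc3b, and none in the other library.

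Chromosome structure genes were mostly higher in cluster 11 than in cluster 2, and mostly lower than in cluster 4 in the library labelled Zfp541-/-. Of the cohesin list, the rings that hold sister chromatids, 6, 9 and 4 of 10 members were above 0 in WT and 1, 9 and 7 of 10 in the other library. Stag1, a cohesin subunit, had 133, 122, 68.8 and 102 CPM in clusters 4, 11, 2 and 7 of WT, and Nipbl, the loader of cohesin, 191, 275, 196 and 324 CPM. Of the synaptonemal complex list 2, 9 and 10 of 11 members were above 0 in WT and 1, 8 and 10 of 11 in the other library, so that cluster 11 lay below cluster 4 and above the later clusters for most of them. The medians of this list against cluster 4 were -0.56 and -0.23. Sycp2, of the lateral element, had 585, 602, 406 and 569 CPM in WT and 592, 542, 390 and 505 CPM in the other library. Chromatin writers and readers had 12 of 21, 19 of 20 and 10 of 20 members above 0 in WT and 5 of 24, 22 of 23 and 15 of 23 in the other library.

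Genes of recombination and telomere attachment had smaller shares above 0 against cluster 4 than all genes in each library, and against cluster 2 their WT shares lay near that of all genes. For double-strand break formation and repair by recombination, 5 of 13, 8 of 12 and 8 of 12 members were above 0 in WT and 4 of 19, 12 of 17 and 11 of 16 in the other library. Brca2, which loads recombinases, stood at 84.4, 94.6, 51.1 and 93.3 CPM in WT clusters 4, 11, 2 and 7 and at 160, 124, 70.8 and 113 CPM in the other library. Crossover genes were above 0 in 3, 6 and 7 of 10 cases in WT and in 1, 8 and 8 of 10 in the other library. Mlh3, of the crossover endonuclease, stood at 119, 119, 69.0 and 125 CPM in WT. Telomere attachment genes were above 0 in 5, 7 and 4 of 11 cases in WT, and in 2 of 12, 9 of 11 and 10 of 11 in the other library. Terb1, the partner of Terb2, stood at 179, 206, 135 and 216 CPM in clusters 4, 11, 2 and 7 of the library labelled Zfp541-/-, and in WT at 68.0 CPM in cluster 11 and 78.9 CPM in cluster 7.

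The factors of sex chromosome silencing had 6 of 16, 13 of 15 and 10 of 15 members above 0 in WT and 3 of 16, 14 of 15 and 14 of 15 in the other library. Their median log2 ratio was -0.16 and -0.23 against cluster 4 and 0.65 and 0.55 against cluster 2. Atr, the kinase that spreads the silencing signal, stood at 313, 369, 204 and 378 CPM in WT clusters 4, 11, 2 and 7 and at 441, 391, 249 and 376 CPM in the other library. Topbp1, the activator of ATR, stood at 194, 132, 69.0 and 118 CPM in WT. Most of these factors were thus lower in cluster 11 than in cluster 4 and higher than in clusters 2 and 7.

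The piRNA pathway, whose small RNAs silence transposons, had 10, 16 and 11 of 18 members above 0 in WT and 4, 16 and 15 of 19 in the other library. The medians against cluster 4 differed in sign, at 0.11 in WT and -0.13 in the other library. Piwil1, the pachytene PIWI protein, stood at 705, 884, 576 and 808 CPM in WT clusters 4, 11, 2 and 7 and at 1033, 1008, 618 and 959 CPM in the other library. Rnf17, a tudor domain protein gene, stood at 251, 301, 140 and 251 CPM and at 283, 266, 166 and 243 CPM. Both genes were highest in cluster 11 of WT and in cluster 4 of the other library. Splicing and RNA-binding genes had 9 of 26, 21 of 24 and 17 of 25 members above 0 in WT and 2 of 26, 24 of 25 and 22 of 25 in the other library.

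Lists of later sperm structures were mostly higher in cluster 11 than in cluster 4 and lower than in cluster 7. The acrosome list summed to 735, 1036, 1194 and 1295 CPM in WT clusters 4, 11, 2 and 7 and to 566, 717, 872 and 902 CPM in the other. Against the 3 clusters in turn, 7, 3 and 1 of 8 measured members were above 0 in each library. Acrbp, the binding protein of proacrosin, had log2 ratios to the 3 clusters summed of -0.36 (-0.51 to -0.22) and -0.49 (-0.62 to -0.36), and Zpbp2, of the acrosomal matrix, -0.51 (-0.73 to -0.30) and -0.43 (-0.52 to -0.35). The flagellum and axoneme list summed to 11534, 14160, 15309 and 15771 CPM and to 8705, 10346, 11138 and 11448 CPM. Meig1, which acts in the assembly of the sperm flagellum, was the largest single part of it in cluster 11. Of its members, 25, 14 and 2 of 26 were above 0 in WT, and 23 of 24, 14 of 25 and 2 of 24 in the other library, so against cluster 2 they were about evenly divided. Energy metabolism genes had 9, 3 and 6 of 14 members above 0 in WT and 6, 4 and 3 of 11 in the other library. Ldhc stood at 5751, 7072, 8499 and 7970 CPM and at 5531, 6600, 7764 and 7220 CPM, between cluster 4 and the later clusters in both libraries.

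Regulators of transcription had 8, 12 and 4 of 16 members above 0 in WT and 5 of 16, 12 of 15 and 7 of 15 in the other library. Mybl1 stood at 85.4, 99.0, 51.1 and 101 CPM in WT clusters 4, 11, 2 and 7 and at 119, 109, 66.2 and 95.9 CPM in the other library. Tcfl5, a basic helix-loop-helix factor gene of pachytene cells, stood at 334, 424, 379 and 524 CPM in WT and at 229, 231, 201 and 240 CPM in the other library. Pou5f2 was the only member at least 2-fold lower in WT cluster 11 than in the 3 clusters summed, at 13.6 CPM against 37.4 and 42.5 CPM in clusters 2 and 7. Genes of the G2/M transition had 4 of 15, 7 of 15 and 9 of 16 members above 0 in WT and 4 of 14, 7 of 13 and 8 of 13 in the other library. Cdk1, the kinase of division entry, stood at 95.7, 68.7, 67.8 and 42.5 CPM in WT and at 46.8, 31.6, 23.0 and 19.3 CPM in the other library.

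Within cluster 11, the library labelled Zfp541-/- was next set against WT. Of 7772 genes with at least 10 CPM in the higher library, 1154 (14.8%) were at least 2-fold higher and 822 (10.6%) at least 2-fold lower. The median log2 ratio was 0.11 and 56.2% of genes were above 0. The central 90% of log2 ratios spanned 4.16 in cluster 11, against 3.52 in cluster 4, 4.65 in cluster 2 and 4.95 in cluster 7. The gaps in depth, mitochondrial share and spermatid transcripts given above accompany all of these ratios, and their part in them was not tested.

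Several genes went from near 0 to a clear level. Igfbp7, a secreted insulin-like growth factor binding protein gene (chr5:77349240-77408041), had 0 UMIs in WT cluster 11 and 1271 in the library labelled Zfp541-/-, at least 82.8-fold higher with 3 counts taken as the limit that a count of 0 allows in a library. Fam81a with 862 UMIs, the scaffold gene Iqgap2 with 747, and the corepressor gene Irf2bp2 with 647 also had 0 in WT, and were at least 56.2-, 48.7- and 42.2-fold higher. For 3010003L21Rik the counts were 0 and 584. Exosc8, a subunit of the RNA exosome, had 15 and 3708 UMIs, or 9.28 and 448 CPM, with a log2 ratio of 5.55 (4.87 to 6.43). Acot13, an acyl-CoA thioesterase gene, had 4 and 1782 UMIs and a ratio of 6.27 (5.09 to 8.32).

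Bend6, Atp2b1 and Sipa1l1 rested on 1, 2 and 1 UMIs in WT against 1186, 1358 and 1032, with ratios of 7.27 (5.38 to 13.16), 6.73 (5.20 to 10.10) and 7.07 (5.17 to 12.96). Atp2b1 encodes a calcium pump of the plasma membrane and Sipa1l1 a GTPase-activating protein for RAP. All 10 were also higher in clusters 4, 2 and 7 of that library. For Exosc8 the log2 ratio was 3.50, 5.68 and 6.11 in clusters 4, 2 and 7, and for Igfbp7 the level rose from 111 CPM in cluster 4 to 154, 244 and 205 CPM in clusters 11, 2 and 7 of the library labelled Zfp541-/-.

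Protamine and transition protein genes led the lower side. Prm2, Prm1, Tnp2 and Tnp1 had 211, 191, 67 and 37 UMIs in WT and 0 in the other library, at least 360-, 326-, 114- and 63.1-fold lower with the same limit of 3 counts. These are the spermatid transcripts described above. Gm15517, AC133868.2 and the zinc finger gene Zfp423 had 85, 45 and 37 UMIs in WT against 0, at least 145-, 76.7- and 63.1-fold lower. Timm8a2, of the mitochondrial import machinery, had 129 and 6 UMIs and a log2 ratio of -6.67 (-8.25 to -5.62), 1700003I22Rik 177 and 5 UMIs and -7.37 (-9.14 to -6.25), and 1700047M11Rik 52 UMIs against 1 and -7.48 (-13.39 to -5.51).

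By list, cohesin, double-strand break and telomere attachment genes were mostly higher in the library labelled Zfp541-/-, while crossover and synaptonemal complex genes lay near the 56.2% of all genes. The cohesin list had 9 of 10 measured members above 0 and a median of 0.38. Smc1b, the meiosis-specific cohesin subunit, stood at 377 CPM in WT and 1533 CPM in the other library, a log2 ratio of 2.02 (1.91 to 2.14), and Stag1 at 122 and 361 CPM, a ratio of 1.56 (1.36 to 1.78). The double-strand break list had 14 of 16 above 0 with a median of 0.61. Tex15, a factor of recombination and of transposon silencing, had 3.09 and 51.5 CPM, a ratio of 3.92 (2.82 to 5.69), and Mei1 1.24 and 28.8 CPM, a ratio of 4.22 (2.67 to 7.59), on 2 WT UMIs. Rpa2, which coats single-stranded DNA, went the other way, with a ratio of -1.04 (-1.41 to -0.65). Telomere attachment genes had 9 of 12 above 0 with a median of 0.63, and crossover genes 6 of 10 with a median of 0.24.

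Chromatin genes split within the list. Of 23 measured chromatin writers and readers 17 were above 0, with a median of 0.65, 7 at least 2-fold higher and 2 at least 2-fold lower. Ehmt1, a histone methyltransferase gene, had 0 UMIs in WT and 274 in the other library, or 33.1 CPM. Setdb1, the methyltransferase that acts on the silenced sex chromosomes, stood at 49.5 and 110 CPM, a ratio of 1.15 (0.82 to 1.50), and the DNA methyltransferase Dnmt1 at 37.7 and 86.8 CPM, a ratio of 1.19 (0.82 to 1.60). Hdac3, a histone deacetylase gene, stood at 51.3 and 11.4 CPM, a ratio of -2.18 (-2.62 to -1.73). Of the 7 genes listed for the ZFP541 complex, 6 were in the matrix and 5 were measured. Of these 5 genes, 3 were above 0, namely Zfp541, Kctd19 at 140 and 252 CPM and Hdac1 at 120 and 229 CPM. Dnttip1 and Hdac2 were below 0, Dnttip1 at 107 and 103 CPM and Hdac2 with a ratio of -0.14 on 60 and 280 UMIs, and the counting intervals of both ratios included 0. Synaptonemal complex genes had 6 of 11 above 0 and a median of 0.06, with Syce3 at 474 and 1094 CPM, a ratio of 1.21 (1.10 to 1.32), and Syce2 at 121 and 42.1 CPM, a ratio of -1.52 (-1.78 to -1.26).

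Genes of sperm structure and energy metabolism were mostly lower. The flagellum and axoneme list had 4 of 26 above 0 and a median of -0.43. Meig1 stood at 6827 and 4470 CPM, a ratio of -0.61 (-0.64 to -0.58), Tekt1 at 285 and 119 CPM and Tekt2 at 84.1 and 18.3 CPM, both tektins of axonemal microtubules, with ratios of -1.26 (-1.42 to -1.09) and -2.21 (-2.55 to -1.86). The acrosome list had 2 of 8 above 0 with a median of -0.40, and Acrbp stood at 281 and 67.2 CPM. Energy metabolism had 3 of 13 above 0 with a median of -0.34. Pgam2, a glycolytic mutase gene, stood at 1006 and 234 CPM, a ratio of -2.10 (-2.20 to -2.01), and Cox6b2, a testis subunit of cytochrome oxidase, at 1747 and 651 CPM, a ratio of -1.43 (-1.49 to -1.36), while Ldha stood higher at 833 and 1108 CPM. Division genes had 6 of 17 above 0, with Pttg1, the securin gene, at 353 and 166 CPM and Cdk1 at 68.7 and 31.6 CPM.

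**Figure D4:**
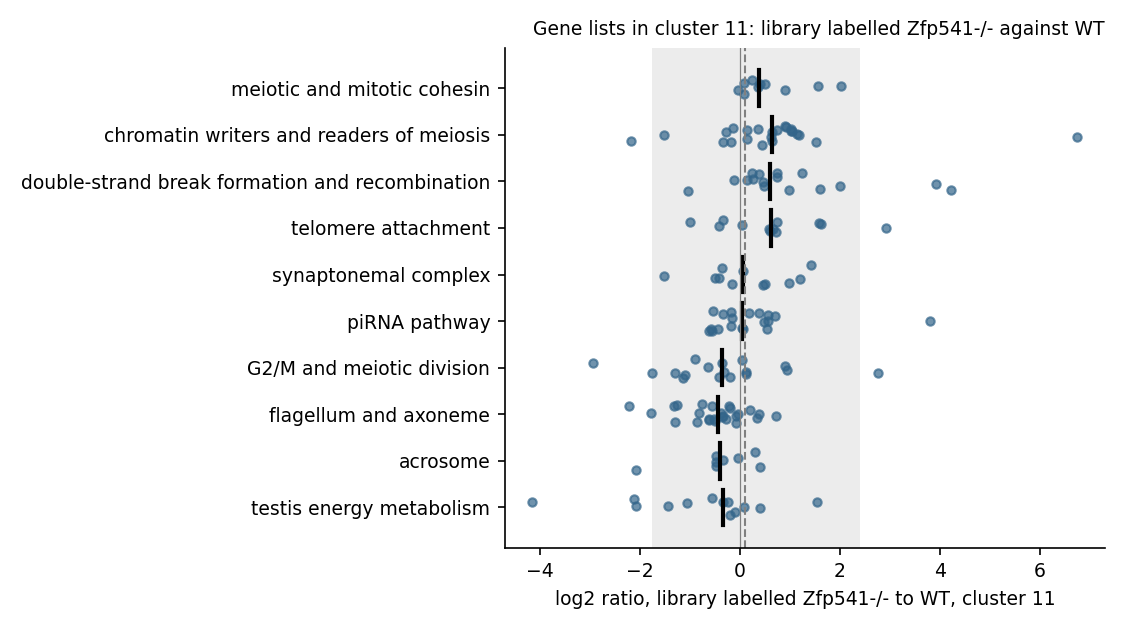
Log2 ratio between the libraries in cluster 11, Zfp541-/- label over WT (x axis), for the measured members of 10 gene lists (rows); points are genes, black bars list medians, the dashed line the median of all measured genes at 0.11 and the grey band their central 90%. Medians lie at 0.65 for chromatin writers and readers, at 0.61 for double-strand break genes and at -0.43 for the flagellum and axoneme.

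The piRNA list was split, with 10 of 19 members above 0 and a median of 0.05. Mael stood at 686 and 997 CPM, a ratio of 0.54 (0.45 to 0.63), whereas Tdrd1 stood at 498 and 336 CPM, a ratio of -0.57 (-0.68 to -0.45). Of the histone genes, H2afy, the macroH2A gene, stood at 516 and 1512 CPM, a ratio of 1.55 (1.45 to 1.65), and Hist1h1t, the testis linker histone, at 160 and 38.4 CPM, a ratio of -2.05 (-2.29 to -1.81). All 12 measured mitochondrially encoded genes were above 0, with a median of 1.33, which goes with the higher mitochondrial share of that library.

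For a further group of genes the ratio between the libraries in cluster 11 differed most from that in clusters 2, 4 and 7 summed. Gsc2, a homeobox gene, stood at 21.1, 73.9, 258 and 182 CPM in clusters 4, 11, 2 and 7 of the library labelled Zfp541-/- and at 1.96 to 8.04 CPM in WT. Camk2n1, an inhibitor of a calmodulin-dependent kinase, stood at 7.24, 13.9, 60.3 and 46.9 CPM there and at 11.3, 55.7, 75.6 and 106 CPM in WT. 1700026J12Rik stood at 14.7, 49.5, 120 and 117 CPM in WT and at 4.72, 5.08, 4.71 and 2.28 CPM in the other library. The differences of log2 ratios were -1.89 (-2.51 to -1.28) for Gsc2, -1.40 (-1.69 to -1.11) for Camk2n1 and 1.29 (0.88 to 1.70) for 1700026J12Rik. Ccdc7a and Sfmbt2 had ratios of opposite sign in the libraries. Tmem186, Pms2, Gm35584 and Auts2 rested on 7, 3, 28 and 2 WT UMIs in cluster 11, and the ratios of Pms2 and Auts2 to the other WT clusters, at -1.41 (-3.94 to 0.02) and 4.65 (-0.09 and no upper bound), had intervals that include 0.

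X-linked transcripts were few in cluster 11 of both libraries, at 174 CPM (154 to 195) in WT and 206 CPM (196 to 216) in the other library, against 16379 and 18999 CPM in the cells before pachytene. In WT the median cell had 141 CPM and the highest 786 CPM. In the other library the median was lower, at 80.7 CPM, but the highest cell reached 5420 CPM. At or above 1000 CPM were 0 of 178 WT cells (exact interval 0% to 2.05%) and 24 of 439 cells labelled Zfp541-/-, or 5.47% (exact interval 3.53% to 8.03%). The level of 1000 CPM was chosen after seeing the data.

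Those 24 cells held 50.9% of the X-linked UMIs of the cluster in that library, and without them the sum was 106 CPM, below that of WT. With each cell thinned to 4234 UMIs, which left out 1 cell in each library, 0 of 177 and 23 of 438 cells (5.25%) reached the level. In clusters 4, 2 and 7 the unthinned shares were 1.01%, 1.54% and 0% in WT and 9.11%, 15.1% and 2.65% in the other library. In WT the counts of 0 to 8 cells do not order the clusters. The 24 cells had a median of 15366 UMIs against 18836 in the others, 3.51% against 3.17% mitochondrial UMIs and a pseudotime of -18453.5 against -18503. Their summed markers of stages before pachytene stood at 5007 against 4598 CPM, and genes of p53 targets and apoptosis at 349 against 355 CPM.

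The UMIs came from many X-linked genes. In the 24 cells 234 X-linked genes had a UMI, against 212 in the remaining 415 cells, of 1088 in the matrix. Ndufa1, of respiratory complex I, had 135 CPM in the 24 cells and 23.2 CPM in the others, and Rpl39, a ribosomal protein gene, 109 and 5.59 CPM. Prdx4, an endoplasmic reticulum peroxiredoxin gene, had 81.4 and 2.92 CPM, Usp26, a testis ubiquitin protease gene, 63.6 and 0.76 CPM, and Fmr1, an RNA-binding protein gene, 45.8 and 1.78 CPM. The cells were chosen by their X-linked level, so these values are a description.

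**Figure D5:**
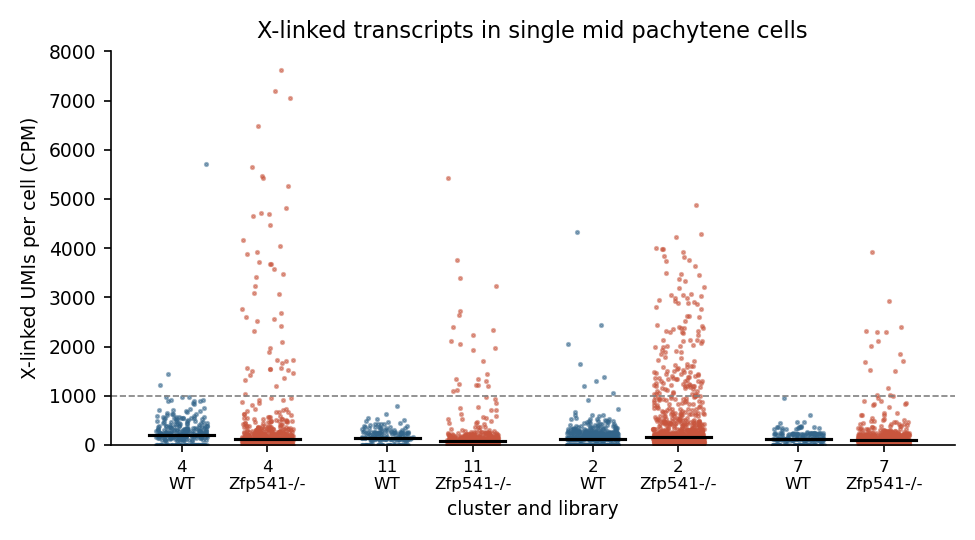
X-linked CPM of each mid pachytene cell (y axis) by cluster and library (x axis); points are cells, spread sideways at random, black bars are medians and the dashed line marks 1000 CPM. In cluster 11, 0 of 178 WT cells and 24 of 439 cells labelled Zfp541-/- lie at or above the line.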

How the data were processed

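Single-cell RNA-seq of sorted tetraploid testis germ cells was analysed from 1 WT library and 1 library labelled Zfp541-/-. Cell Ranger 3.1.0, Seurat 3.2.0 and the mm10 genome were used, per the submitters' processing notes. The deposited matrices hold raw UMI counts of 31053 genes per cell barcode. Per the file headers, the deposited cell table holds the count of UMIs and genes of each cell, mitochondrial and ribosomal percent values, cluster numbers, stage names and a pseudotime score, whose method the labels do not state. The lowest number of genes in an annotated cell was 1000 and the highest mitochondrial share 10%. The merged matrix was not used.

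UMIs were summed per gene, cluster and library and scaled to CPM. Log2 ratios were taken after adding 0.5 counts to each sum, for genes that reached 10 CPM in the higher of the groups compared, with exact conditional binomial intervals. CPM have exact Poisson and shares exact Clopper-Pearson intervals, at 95%. A count of 0 was read as allowing 3 counts. The scripts were tested on simulated data. Cells are not replicates, so no p-value was computed. Gene positions are from GENCODE M21 (30934 of 31053 genes matched) and promoters from RefSeq. Python 3.11.15, numpy 2.4.6, scipy 1.17.1, pandas 2.3.3 and matplotlib 3.10.9 were used.

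Named genes were, by the bound nearest 0 of the interval, the 15 higher and 15 lower in cluster 11 on the same side of clusters 2, 4 and 7 in both libraries, the 10 in each direction between libraries, and the 5 in each direction whose library ratio differed most from that of the other clusters by a delta-method interval. The supplied markers, Zfp541, and for each list the 4 members with the highest UMI sums in cluster 11 and the 2 with the largest ratios in each direction were eligible, of which the text names a few. Genes of the trend between clusters 4 and 7, Malat1, the X-linked genes, single markers of the stage check and some list members were chosen after their values were seen. Some genes that the rule selects are not reported here. The members and lists were chosen with earlier results of these data known. Alternatives were another constant, a 50 CPM minimum, scaling by the median of ratios, thinning of cells, a 5% mitochondrial limit, equal weight of the reference clusters and reference cells of the same pseudotime.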

Additional observations from a re-analysis of the deposited data

Results flagged for a closer look

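Ccdc7a and Sfmbt2 moved in opposite directions in the 2 libraries when cluster 11 was set against the other mid pachytene clusters. The log2 ratio of Ccdc7a, a coiled-coil protein gene, was -0.89 (-1.74 to -0.20) in WT and 0.54 (0.09 to 0.96) in the library labelled Zfp541-/-. It stood at 10.5 CPM in WT cluster 11, from 17 UMIs, against 44.1 CPM in cluster 7. That of Sfmbt2, a Polycomb protein gene, was 0.58 (0.22 to 0.92) in WT and -1.23 (-2.33 to -0.41) in the library labelled Zfp541-/-, where it rested on 11 UMIs. With 1 library per genotype the difference was not tested for either gene, and for Sfmbt2 it is not seen with cells thinned to the same UMIs.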

How the results depend on the processing

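Counts of genes at least 2-fold apart moved with several settings. With a constant of 1 count, 15 genes were lower in WT. With a minimum of 50 CPM, 0 genes were higher and 2 lower in WT, 2 were lower in the library labelled Zfp541-/-, and between the libraries 418 were higher and 312 lower, from fewer genes measured. With cells thinned to the same UMIs, WT had 149 higher and 78 lower and the other library 10 higher. With the reference clusters at equal weight, WT had 21 higher and the other library 10 lower. With reference cells of the same pseudotime, only 30 and 22 cells were left to compare with, and the counts were 867 higher and 388 lower in WT and 504 and 207 in the other library. Under that setting the WT ratios turned to 1.05 for Tmem186 and -0.53 for Auts2. For Sfmbt2, thinning gave a ratio of 0.0723 where the Zfp541-/- label applies. The cause was not tested, apart from fewer genes or fewer cells entering. Of 795 values of named genes under the alternatives, 28 changed sign and 690 lay within the original counting interval. These totals mix unlike settings. With reference cells of the same pseudotime, 20 of 94 values changed sign and only 25 lay within the interval. The 50 CPM minimum only drops genes, so its 79 values could not move. The mitochondrial limit moved none of 132 values beyond it. Scaling by the median of ratios lowers every log2 ratio by 0.08 in WT, 0.07 in the other library and 0.11 between libraries. No paired analysis was possible because each genotype is 1 library with no replicate number. Depth limits the WT values most, where 10 UMIs are 6.19 CPM.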
